A study of Sus scrofa with 18 samples.

Results

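miR-143 and miR-145 are a pair of microRNA hairpins that lie beside each other in mammalian genomes and are made from a shared primary transcript. The 4 mature arms described here, ssc-miR-143-3p, ssc-miR-143-5p, ssc-miR-145-5p and ssc-miR-145-3p (ssc for Sus scrofa, left off below where an arm is repeated), were taken by name from the authors' table of expressed miRNAs, which lists 465 mature miRNAs. All 4 arms were among the 252 miRNAs with enough reads to be tested. The rule used their names and no measured value. The members were, however, chosen with earlier results of these data known.

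The tissue and exosome samples came from skeletal muscle of adult Hechuan black pigs, all described in the labels as castrated sows. The compared groups were HC-L exosomes, HC-P exosomes, HC-L muscle tissue and HC-P muscle tissue, with 3 small RNA libraries in each. The series was made to compare the miRNA content of exosomes from an oxidative and a glycolytic muscle, but neither HC-L nor HC-P is named as the oxidative one in the labels, and they call the HC-P exosomes Y-Exo. A further 3 HC-L and 3 HC-P muscle libraries of mRNA are used here through the authors' table of called genes. Exosomes were prepared from fascia-free, minced and homogenised muscle by stepwise centrifugation, filtration and a commercial kit, so they are vesicles of a whole tissue homogenate and not of a single cell type. RNA was extracted with Trizol LS from exosomes and with Trizol from tissue, and the kind of sample therefore cannot be told apart from its isolation and extraction. The labels do not say whether replicates are separate pigs, so p-values measure only the spread between these libraries, which may be technical.

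In mouse and human, the shared primary transcript is made mainly in smooth muscle cells of vessel walls and other organs, where serum response factor and myocardin switch it on. miR-145-5p and miR-143-3p are the main products and hold smooth muscle cells in a contractile state, partly by repressing the transcription factors KLF4, KLF5 and ELK1. A hairpin is cut into a short duplex, and usually the strand that is loaded into Argonaute stays abundant while the other arm is degraded. In skeletal muscle the pair is usually ascribed to blood vessels rather than to fibres. In bulk libraries such as these, fewer cells of a type and less RNA per cell cannot be told apart, and the cell source of the arms was not measured.

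The 6 exosome libraries held between 106040 and 959599 miRNA reads and the 6 tissue libraries between 3964875 and 9016010. A count of 3 reads, the limit that a count of 0 allows, was worth 3.13 to 28.3 TPM (as deposited, reads per 1e6 miRNA reads of the library) in exosomes and 0.333 to 0.757 TPM in tissue. The rare arms were thus read thinly in exosomes, with 3 to 15 reads of miR-143-5p and 14 to 99 reads of miR-145-3p per library. Without molecular identifiers, the intervals and floors given here describe counting error alone. One tissue library, HC-P replicate 1, was unlike the rest of the tissue, with 158 of the 252 tested miRNAs (62.7%) above all 5 other tissue libraries in TPM and 31 (12.3%) below all 5. Several results that rest on it are given with and without it.

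ssc-miR-143-3p, the main product of its hairpin, was among the most abundant miRNAs of every library, at 0.795% to 3.47% of miRNA reads in exosomes and 1.88% to 4.16% in tissue. It ranked between 5 and 14 in exosome libraries and between 3 and 8 in tissue libraries. HC-L exosomes held 7948, 9579 and 34704 TPM and HC-P exosomes 9106, 10443 and 25141 TPM, against 24771, 31028 and 41627 TPM in HC-L tissue and 18826, 35188 and 23331 TPM in HC-P tissue. Replicate 3 was the highest exosome library of either muscle and reached into the tissue range, while the other exosome libraries lay below every tissue library. Ordered by group mean the arm was highest in HC-L tissue, then HC-P tissue, HC-L exosomes and HC-P exosomes, and each neighbouring pair in that order overlapped in TPM.

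ssc-miR-145-5p, the main product of the second hairpin, was far less abundant. Its values were 242, 196 and 1079 TPM in the HC-L exosomes and 93.8, 511 and 453 TPM in the HC-P exosomes, against 243, 242 and 352 TPM in HC-L tissue and 2042, 342 and 252 TPM in HC-P tissue. The highest value of all came from HC-P tissue replicate 1, at 5.8 times the highest of the other 5 tissue libraries. The other 5 tissue libraries spanned only 242 to 352 TPM, whereas the 6 exosome libraries spanned an 11.5-fold range. The order of group means was HC-P tissue, HC-L exosomes, HC-P exosomes and HC-L tissue, again with overlap between all neighbours, and HC-P tissue comes first through its replicate 1.

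ssc-miR-145-3p, the lesser arm of miR-145, had 86, 77.6 and 247 TPM in the HC-L exosomes and 103, 95 and 132 TPM in the HC-P exosomes, against 41.7, 27.6 and 52.6 TPM in HC-L tissue and 31.5, 40.3 and 42.4 TPM in HC-P tissue. Every exosome library was above every tissue library on this scale. The 2 exosome groups overlapped each other, and so did the 2 tissue groups. This separation is one that many miRNAs showed in TPM. Of the 252 tested miRNAs, 29.8% lay wholly higher in HC-L exosomes than in HC-L tissue, 18.7% did so in HC-P, and 11.5% did so over all 6 against 6 libraries. With library sizes scaled by the trimmed mean of M values (TMM), which discounts the few dominant miRNAs, the miR-145-3p groups overlapped in both muscles.

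ssc-miR-143-5p, the lesser arm of miR-143, was the rarest of the 4. It reached 11.9, 4.75 and 54.5 TPM in the HC-L exosomes and 9.38, 41.6 and 56.6 TPM in the HC-P exosomes, against 8.46, 8.87 and 19.3 TPM in HC-L tissue and 28.5, 12.8 and 10.8 TPM in HC-P tissue. HC-L exosome replicate 2 held only 3 reads, and all 4 groups overlapped. Over all 12 libraries the arm was counted 592 times, against 1895 reads of miR-145-3p, 19227 of miR-145-5p and 1244315 of miR-143-3p.

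**Figure D1:**
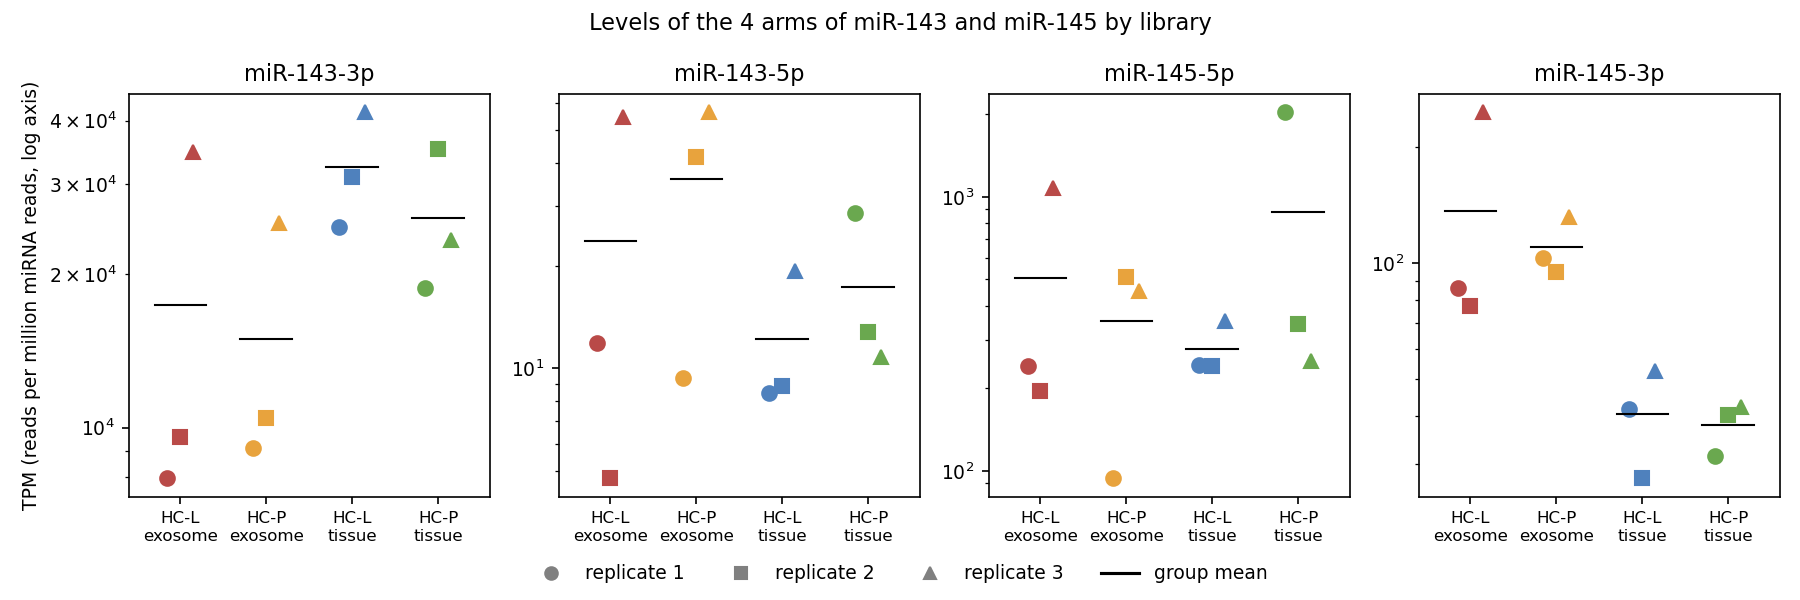
TPM (log axis, a separate scale per panel) of the 4 arms in the 12 small RNA libraries, with a symbol per replicate number and a line at each group mean of 3 libraries. Every exosome library lies above every tissue library for miR-145-3p only, and the miR-145-5p value of 2042 TPM in HC-P tissue replicate 1 lies far above the other tissue libraries.

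Exosomes were compared with tissue in each muscle by edgeR's quasi-likelihood test on the deposited counts with TMM scaling. miR-143-3p was lower in exosomes in both muscles and was the only arm that passed the test. In HC-L its log2 fold change was -2.19 ± 0.55 (SE), or 0.22 of the tissue level, with an edgeR adjusted p of 0.0226. In HC-P it was -1.92 ± 0.55 (SE), or 0.265 of the tissue level, with an edgeR adjusted p of 0.0249. In counts per 1e6 after TMM scaling (CPM) the 3 HC-L exosome libraries, at 7337 to 17836, all lay below the 3 HC-L tissue libraries, at 32808 to 68258. Such a gap towards lower values was seen for 32.9% of tested miRNAs in HC-L. HC-P exosomes, at 7452 to 12362 CPM, overlapped HC-P tissue, at 11719 to 48980.5 CPM, through tissue replicate 1.

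Thus 1 of 4 arms was called lower and 0 higher in each muscle. Of all tested miRNAs, 9.92% were called lower and 6.35% higher in HC-L exosomes, and 16.7% lower and 9.13% higher in HC-P exosomes. In either direction the share was 16.3% for HC-L and 25.8% for HC-P, and with 4 arms a count of 1 is near that background. The median of all tested miRNAs was itself -0.40 in HC-L and -0.70 in HC-P, so relative to the median miR-143-3p differed by -1.78 and -1.22. The call depended on how library sizes were scaled. With plain library totals the log2 fold change of miR-143-3p was -0.90 in HC-L (edgeR adjusted p = 0.344) and -0.79 in HC-P (0.383). With DESeq2 it passed in both, at -1.83 (DESeq2 adjusted p = 0.0106) and -1.59 (0.0251). It kept its negative sign under all 4 scalings. Over the same scalings the median of all tested miRNAs moved between -0.40 and 0.72 in HC-L and between -0.70 and 0.00 in HC-P, and relative to it miR-143-3p lay between -1.78 and -1.62 in HC-L and between -1.22 and -0.79 in HC-P.

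The call on miR-143-3p was also sensitive to single libraries. In HC-L it was lost in 6 of 12 fits that left out a library, namely HC-L exosome replicate 1, 2 or 3, HC-L tissue replicate 2 or 3, or HC-P exosome replicate 3. Over these 12 fits the log2 fold change stayed between -2.25 and -1.68, with edgeR adjusted p from 0.00404 to 0.0998. In HC-P it was lost in 8 of 12, without any HC-L tissue library, any HC-P exosome library, or HC-P tissue replicate 2 or 3. There the log2 fold change ranged from -2.22 to -1.20 and was smallest in size without HC-P tissue replicate 2.

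miR-145-5p did not pass the test in either muscle. In HC-L its log2 fold change was -0.47 ± 0.60 (SE; edgeR adjusted p = 0.633), and it lay -0.07 from the median of all tested miRNAs. Its sign in HC-L turned with the scaling, being 0.85 with library totals. In HC-P the log2 fold change was -1.75 ± 0.63 (SE), with an edgeR adjusted p of 0.0531. In TMM-scaled CPM the HC-P exosome libraries, at 82.6 to 365, lay wholly below HC-P tissue, at 475 to 1271, as did 21.8% of tested miRNAs. Without HC-P tissue replicate 1 this difference was -1.02, and without HC-P exosome replicate 2 it was -2.41 and passed (edgeR adjusted p = 0.0383). It also passed, at -1.74 with an edgeR adjusted p of 0.0327, when miRNAs with few reads were not filtered out.

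The lesser arms did not pass in either muscle. miR-145-3p had log2 fold changes of 0.56 ± 0.55 for HC-L and 0.53 ± 0.56 for HC-P (SE; edgeR adjusted p = 0.52 and 0.492). It was positive in every scaling and lay 0.96 and 1.23 above the median of all tested miRNAs. miR-143-5p had -0.46 ± 0.71 in HC-L and 0.13 ± 0.74 in HC-P (SE; edgeR adjusted p = 0.706 and 0.92), and its HC-L value turned to 0.88 with library totals. The authors' deposited tables hold some of these arms. In HC-L they list miR-143-3p at -1.81 (adjusted p = 0.000718) and miR-145-3p at 0.95 (0.0284), and in HC-P miR-143-3p at -1.60 (0.142) and miR-145-5p at -1.56 (0.199).

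**Figure D2:**
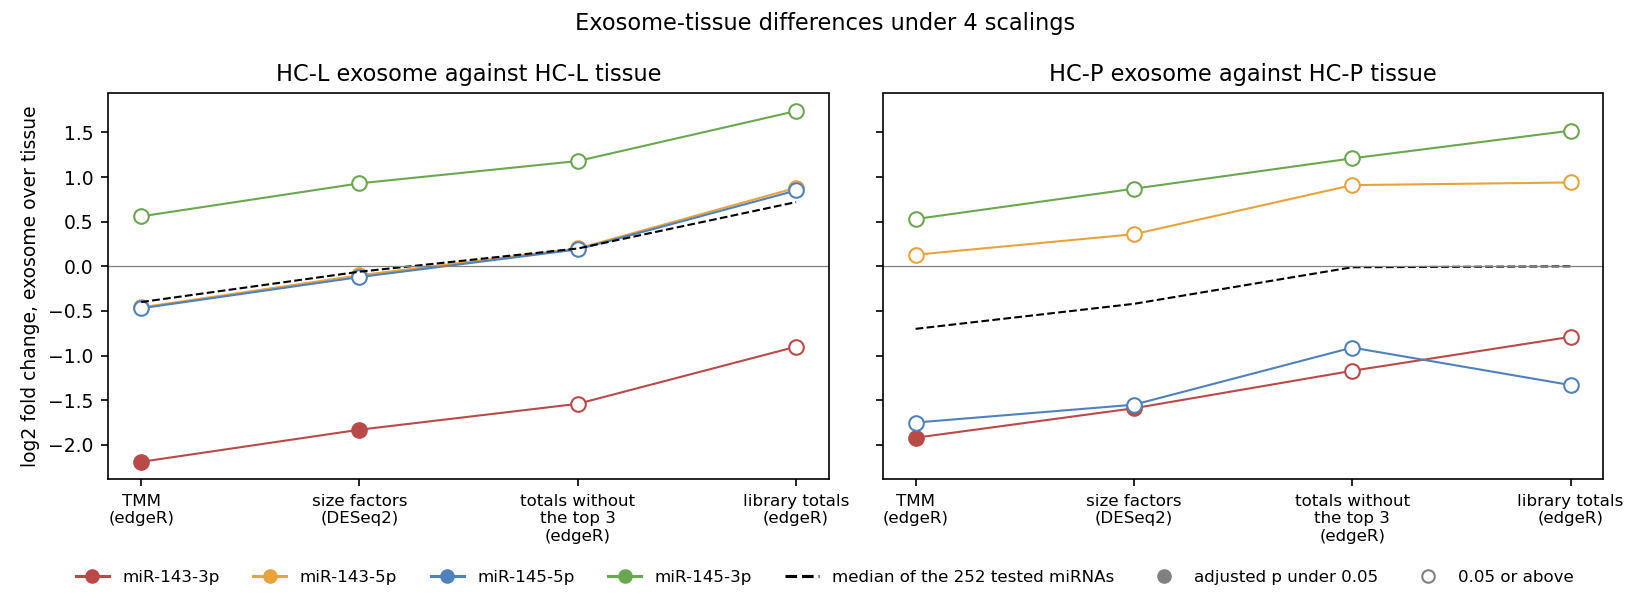
Fitted log2 fold change of exosomes over tissue for each arm under 4 ways of scaling library sizes, in HC-L (left) and HC-P (right), with the median of the 252 tested miRNAs as a dashed line and filled points where the adjusted p is under 0.05. miR-143-3p is the lowest arm under every scaling in HC-L, and in HC-P it lies below the dashed line throughout, while only TMM and DESeq2 size factors give filled points.

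Between the muscles, no arm passed the test. In exosomes the log2 fold change of HC-L over HC-P was 0.33 ± 0.53 for miR-143-3p, 0.56 ± 0.61 for miR-145-5p, 0.34 ± 0.56 for miR-145-3p and -0.50 ± 0.78 for miR-143-5p (SE; edgeR adjusted p = 0.991 each). In tissue it was 0.60 ± 0.53 for miR-143-3p (edgeR adjusted p = 0.671), -0.72 ± 0.60 for miR-145-5p (0.648), 0.31 ± 0.55 for miR-145-3p (0.82) and 0.09 ± 0.67 for miR-143-5p (0.978). edgeR called 0 of 252 miRNAs (0%) in either comparison. At an unadjusted p under 0.05 it gave 8 in exosomes and 28 in tissue, none of them an arm of this pair, and DESeq2 called 2 and 0. A p that misses the threshold in these small groups does not show that the muscles were alike. Without HC-P tissue replicate 1 the tissue difference was -0.24 for miR-145-5p and 0.02 for miR-143-3p.

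The exosome-tissue difference was also set against itself between muscles. The HC-L difference minus the HC-P difference was -0.27 ± 0.75 for miR-143-3p (edgeR adjusted p = 0.971) and 1.28 ± 0.86 for miR-145-5p (0.956). For miR-145-3p it was 0.03 ± 0.78 (edgeR adjusted p = 1) and for miR-143-5p -0.59 ± 1.03 (0.971). The value for miR-145-5p was 0.72 without HC-P tissue replicate 1. miR-145-5p, near the median in HC-L and low in HC-P, was therefore not shown to behave differently in the 2 muscles. edgeR called 0 of 252 miRNAs (0%) for this difference, with 8 at an unadjusted p under 0.05, and DESeq2 also called 0.

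Ratios of reads within a library need no scaling between libraries, so the arms of each hairpin were compared directly. In miR-145 the lesser 3p arm took a larger share in exosomes than in tissue. The 3p arm was 26.2%, 28.3% and 18.6% of miR-145 reads in the HC-L exosomes and 52.4%, 15.7% and 22.6% in the HC-P exosomes, against 14.7%, 10.2% and 13% in HC-L tissue and 1.52%, 10.5% and 14.4% in HC-P tissue. No exosome library overlapped a tissue library. Many other hairpins showed such a gap between their arm ratios too, in either direction, so the gap was not particular to miR-145. The test described next is a different criterion, which some hairpins with overlap also met. It was passed by 22 of 63 (34.9%). In HC-P exosome replicate 1, 99 reads came from the 3p arm and 90 from the 5p arm, an exact 95% binomial interval of 45% to 59.7% for 3p. HC-P tissue replicate 1 lay at the other end, with an interval of 1.27% to 1.81%. HC-P exosome replicate 2 came nearest to tissue, and its interval of 9.24% to 24.2% spans the tissue values from 10.2% to 14.7%.

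On a log2 scale the ratio of the 5p to the 3p arm of miR-145 averaged 1.49 ± 0.89 in exosomes and 3.35 ± 1.33 in tissue (SD, n = 6 each). The difference of -1.86 had p = 0.005 in an exact two-sided permutation test within muscles, the smallest p it can give, and an adjusted p of 0.0185 over the 63 hairpins with both arms counted. Within muscles it was -1.16 in HC-L and -2.56 in HC-P, each with an exact permutation p of 0.1, the smallest that 3 against 3 libraries allow. Leaving out single libraries gave -2.19 to -1.33. It was smallest in size without HC-P tissue replicate 1, and its adjusted p rose above 0.05, to 0.0716, only without HC-P exosome replicate 1. With same-numbered libraries of a muscle taken as pairs, the exact permutation p was 0.0312, the smallest that 6 pairs allow, and the adjusted p 0.0895. At that smallest p, 40 of the 63 hairpins would have to reach it for any to pass, and 22 did.

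In miR-143 the dominance of the 3p arm was much stronger, and it too was smaller in exosomes. There were 670.4, 2015 and 637 reads of miR-143-3p per read of miR-143-5p in the HC-L exosomes and 971, 251 and 444 in the HC-P exosomes, against 2929, 3497 and 2157 in HC-L tissue and 661, 2759 and 2168 in HC-P tissue. The groups overlapped through HC-P tissue replicate 1 alone, since the lowest of the other 5 tissue libraries, at 2157, was above the highest exosome library, at 2015. The log2 ratio averaged 9.29 ± 0.98 in exosomes and 11.03 ± 0.86 in tissue (SD, n = 6 each). The difference of -1.74 had an exact permutation p of 0.015 and an adjusted p of 0.043. Within muscles it was -1.67 in HC-L (exact permutation p = 0.1) and -1.82 in HC-P (p = 0.2). Taken as pairs, the exact permutation p was 0.0625 and the adjusted p 0.151.

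The miR-143 result rests on very few reads of its lesser arm in exosomes, 3 to 15 per library. Its adjusted p was above 0.05 in 10 of the 12 analyses that left out a library. It passed there without HC-L exosome replicate 2 and without HC-P tissue replicate 1, and the difference ranged from -2.06 to -1.51. Changes of arm ratio between exosomes and tissue were common in this series. Of the 63 hairpins, 22 (34.9%) passed the same test. Over all 63 the ratios moved in both directions, with 31 differences negative and 32 positive. By absolute size, miR-145 ranked 16 and miR-143 ranked 18 of 63, where the median absolute difference was 1.23. Between the muscles, HC-L minus HC-P, the arm ratio differed by 0.90 for miR-143 (exact permutation p = 0.1, adjusted p = 0.918) and by -0.39 for miR-145 (p = 0.595, adjusted p = 1), and 0 of 63 hairpins (0%) passed.

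**Figure D3:**
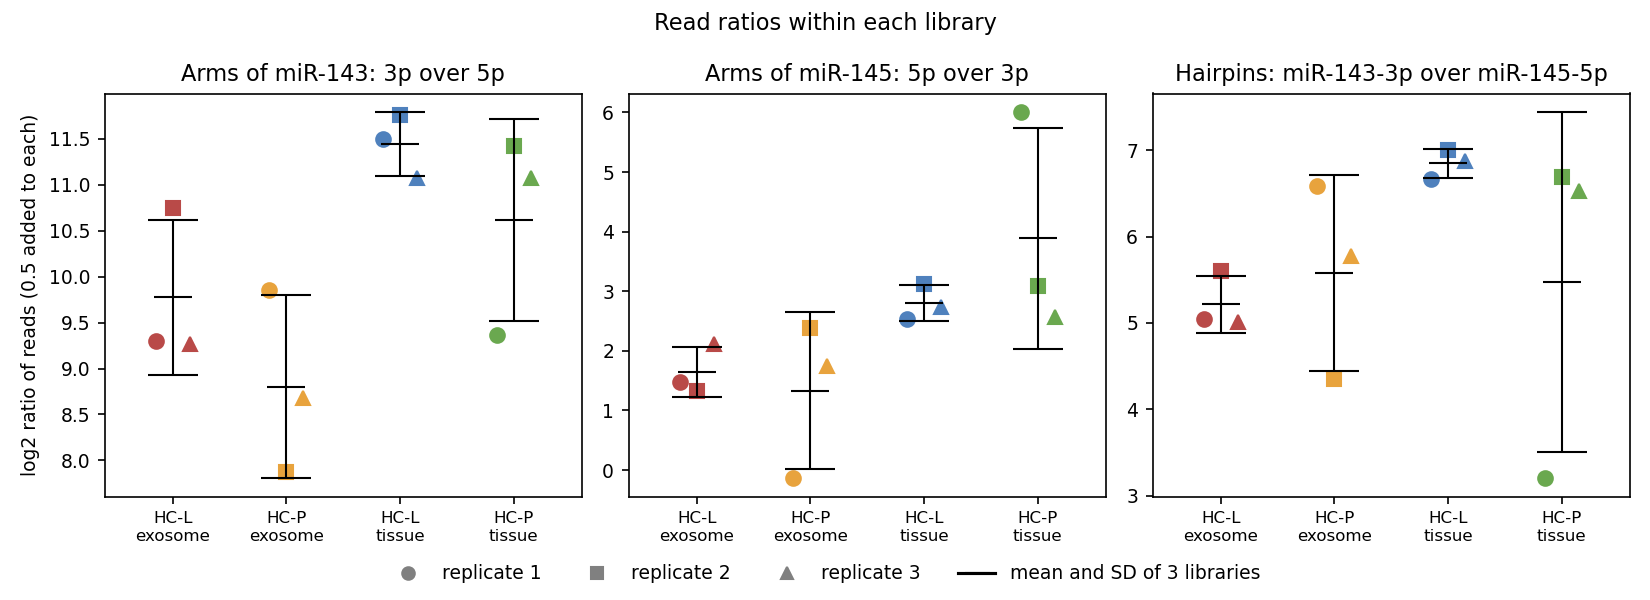
Log2 ratios of reads within each library, with 0.5 added to each count: 3p over 5p of miR-143, 5p over 3p of miR-145, and miR-143-3p over miR-145-5p. Symbols are replicate numbers and bars give the mean and SD of the 3 libraries of a group. The miR-145 exosome values, from -0.14 to 2.39, all lie below the tissue values, from 2.54 to 6.01, and HC-P tissue replicate 1 is the odd tissue library in all 3 panels.

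Since both hairpins come from a shared transcript, the ratio of their main products was followed across groups. miR-143-3p exceeded miR-145-5p in every library. The ratio of reads was 32.9, 48.8 and 32.2 in the HC-L exosomes and 97.1, 20.4 and 55.5 in the HC-P exosomes, against 102, 128 and 118 in HC-L tissue and 9.22, 103 and 92.6 in HC-P tissue. In 5 of 6 tissue libraries it was thus held within 92.6 to 128. The exosome libraries ran from 20.4 to 97.1, and a single one of them reached the range of those 5.

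The log2 ratio averaged 5.39 ± 0.78 in exosomes and 6.16 ± 1.46 in tissue (SD, n = 6 each), a difference of -0.77 with an exact permutation p of 0.28 and an adjusted p of 0.447. That adjustment was over 67 pairs of hairpins lying within 10 kb of each other, of which 8 (11.9%) passed. In absolute size miR-143 and miR-145 ranked 37 of these 67. The result depended on HC-P tissue replicate 1. Without it the difference was -1.34 with an adjusted exact p of 0.0437. Of the 12 analyses that left out a library, only this 1 passed, and the adjusted exact p reached 0.811 among them. How many of the 67 pairs passed without that library is not given here. In HC-L, where that library plays no part, exosomes averaged 5.21 ± 0.34 and tissue 6.85 ± 0.17 (SD, n = 3 each), with no overlap and an exact permutation p of 0.1, the smallest possible. The share of all pairs without overlap in HC-L alone is not given here. In HC-P the means were 5.57 ± 1.14 in exosomes and 5.47 ± 1.97 in tissue (SD, n = 3 each; exact permutation p = 0.9), where tissue replicate 1 stood at 3.20 and the others at 6.69 and 6.53. The difference between the muscles in this change was not tested. HC-L minus HC-P, over exosomes and tissue together, the ratio differed by 0.51 (exact permutation p = 0.58, adjusted p = 0.884).

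The lesser arms gave another ordering of the hairpins. miR-145-3p exceeded miR-143-5p in every library, and the ratio of miR-143-5p to miR-145-3p reads ran from 0.0612 to 0.438 in exosomes and from 0.203 to 0.904 in tissue. The highest tissue value was again HC-P tissue replicate 1, and the other 5 reached at most 0.367. In the log2 ratio exosomes averaged -2.41 ± 1.13 and tissue -1.52 ± 0.74 (SD, n = 6 each), and the ranges overlapped.

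**Figure D4:**
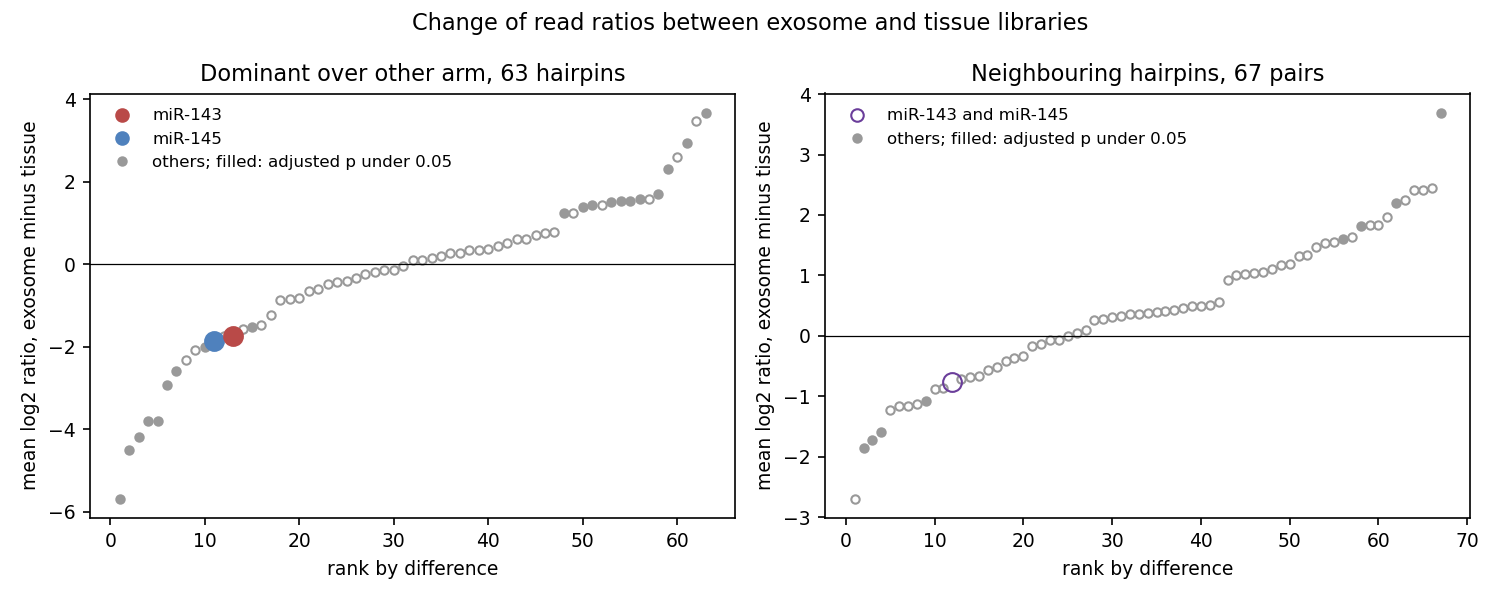
Mean log2 ratio in exosomes minus tissue, ranked from lowest to highest, for the dominant over the other arm of 63 hairpins (left) and for 67 pairs of neighbouring hairpins (right), with filled points where the adjusted p of the exact permutation test is under 0.05. miR-143 (-1.74) and miR-145 (-1.86) lie close together among the negative arm differences, and their hairpin ratio (-0.77) lies among the open points.

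The miRNAs that followed each main arm most closely across the 12 libraries differed between the hairpins. Likeness was measured by the SD of the log2 ratio of reads to the arm, over 149 other miRNAs with a group mean of at least 50 CPM. It is a description, since all values share the same libraries. For miR-143-3p the closest were miR-24-3p (SD 0.42), miR-126-5p (0.46), miR-199b-5p (0.49), miR-29b (0.51) and miR-374b-5p (0.51), where the median over all was 1.34. For miR-145-5p they were miR-339-5p (SD 0.39), miR-140-3p (0.40), miR-103 (0.58), miR-99b (0.68) and miR-133a-3p (0.73), where the median was 1.24.

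miR-143-3p and miR-145-5p themselves were not close over all 12 libraries. Their SD was 1.18, which placed miR-145-5p at rank 62 of 149 for miR-143-3p and miR-143-3p at rank 71 for miR-145-5p. In the 5 tissue libraries without HC-P tissue replicate 1 it was 0.19, at ranks 2 and 5. In the 6 exosome libraries it was 0.78, at ranks 75 and 30. Over all 6 tissue libraries the SD was 1.46, above that of the exosomes. The median SD over the other miRNAs was 0.50 for miR-143-3p and 0.42 for miR-145-5p in those 5 tissue libraries. In exosomes these medians were 0.78 and 1.08, so looser ratios there were not particular to this pair. The main products thus kept a nearly fixed ratio only with HC-P tissue replicate 1 left out, and a looser one in exosomes. The exosome libraries also held fewer reads, and the part of depth in this was not tested.

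The 5 miRNAs closest to miR-145-5p were also high in HC-P tissue replicate 1. That library was among the 12 by which they were picked, so their high values in it follow in part from the choice. In it 158 of the 252 tested miRNAs (62.7%) lay above all 5 other tissue libraries. miR-133a-3p, a muscle fibre miRNA, stood at 132559.8 TPM there, 5.81 times the highest of the other 5 tissue libraries. miR-339-5p was at 5.82 times, miR-140-3p at 4.92 times, miR-99b at 4.5 times and miR-103 at 3.1 times. miR-143-3p lay below all other 5 tissue libraries in it, at 0.452 of the highest. Without this library miR-339-5p, miR-140-3p and miR-103 were still the closest to miR-145-5p, with SDs of 0.41, 0.42 and 0.52, and miR-455-5p and miR-100 took the places of the other two.

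Other miRNAs of vascular smooth muscle were examined as a list of 12, of which 11 were tested. In HC-L, 1 was called higher in exosomes and 3 lower, where 6.35% and 9.92% of all tested miRNAs were called, with a list median of -1.42 beside -0.40 for all tested. miR-222, which promotes growth of vascular smooth muscle in rats, was higher at 2.62 ± 0.81 (edgeR adjusted p = 0.0414), while miR-21-5p, miR-24-3p and miR-424-5p were lower. In HC-P, 2 were called higher and 4 lower, where 9.13% and 16.7% of all tested were, with a median of -0.99 beside -0.70. miR-1 and miR-133a-3p of this list are also fibre miRNAs. There miR-222 and its cluster partner miR-221-3p were higher, at 2.46 ± 0.81 and 3.00 ± 0.74 (SE; edgeR adjusted p = 0.0396 and 0.0139), and miR-22-3p, miR-24-3p, miR-133a-3p and miR-424-5p were lower. miR-24-3p was lower in both muscles, by -1.63 ± 0.44 in HC-L and -1.44 ± 0.44 in HC-P (SE; edgeR adjusted p = 0.0328 and 0.0324). It was also picked above as the miRNA closest to miR-143-3p over these same 12 libraries. A change like that of miR-143-3p therefore follows in part from that choice.

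Markers of other cells were set beside the arms. Of 6 skeletal muscle fibre miRNAs, 1 was called lower in the HC-L exosomes and 2 in the HC-P exosomes, against 9.92% and 16.7% of all tested miRNAs in those comparisons, and their summed share of reads was 53.3% to 67.8% in the HC-L exosomes and 54.5% to 66.4% in the HC-P exosomes, against 72.6% to 78.9% in HC-L tissue and 48.6% to 81.1% in HC-P tissue. Of 4 endothelial miRNAs, 1 was called higher in HC-L and 2 in HC-P, against 6.35% and 9.13% of all tested miRNAs, with a summed share of 0.871% to 2.85% in the HC-L exosomes and 1.03% to 2.17% in the HC-P exosomes, against 0.486% to 1.01% in HC-L tissue and 0.598% to 1.06% in HC-P tissue. miR-221-3p and miR-222 stand in the endothelial and the smooth muscle lists alike, and they are the called ones. Of the vessel marker miR-126, the 3p arm stood at -0.06 in HC-L and -0.04 in HC-P (edgeR adjusted p = 0.939 and 0.975) and the 5p arm at -1.48 and -1.91 (edgeR adjusted p = 0.163 and 0.0621). Of 3 red cell miRNAs, 0 were called in HC-L and 1, miR-486, was called lower in HC-P, with summed shares of 0.18% to 0.555% over the exosome libraries and 0.12% to 1.53% over the tissue libraries. Their part in the results for miR-143 and miR-145 was not tested. Between the muscles 0 members of these lists were called.

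On the mRNA side, the authors' deposited table holds 522 genes called between HC-L and HC-P muscle, 356 higher and 166 lower in HC-L, and without the number of genes tested no share called can be given. A symbol stands beside 429 of the 522, and genes without one could not be matched by name to the lists used here. Of 23 smooth muscle and mural cell genes, 4 are in it. TAGLN, an actin-binding protein of smooth muscle, had signals of 17.2 to 29 in HC-L and 3.17 to 5.37 in HC-P. Its log2 fold change in the authors' deposited table was 2.45 (adjusted p = 0.0152). These signals are low beside those of NOTCH3, SYNPO2 and TPM1, whose group means were 434 or more. SYNPO2, an actin-associated protein, was higher in HC-L at 1.01 and TPM1, a tropomyosin also made in fibres, at 1.70 in the authors' deposited table, the TPM1 libraries overlapping between muscles. NOTCH3, a receptor of vascular smooth muscle and pericytes, went the other way, with signals of 375 to 548 in HC-L and 801 to 991 in HC-P (-1.01, authors' deposited table, adjusted p = 0.00299). ACTA2, MYH11 and MYOCD, which define contractile smooth muscle, are not among the 4.

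Of 27 genes reported elsewhere as targets of miR-143 or miR-145, mostly in human and rodent cells, 3 are in the table and all were higher in HC-L. So were 356 of all 522 genes in it, and 3 genes are too few to differ from that share. KLF5, a transcription factor of the proliferative smooth muscle state, had signals of 1391, 2389.8 and 1183 in the HC-L libraries and 219, 339 and 198 in the HC-P libraries, with no overlap. Its log2 fold change in the authors' deposited table was 2.71 (adjusted p = 3.72e-12). MYC, a driver of cell growth, had mean signals of 1345 for HC-L and 272 for HC-P, and its libraries did not overlap (2.30, authors' deposited table, adjusted p = 6.51e-05). SSH2, a phosphatase that activates cofilin, had 1013 to 2963 in HC-L and 504 to 1071 in HC-P, which overlap (1.41, authors' deposited table, adjusted p = 0.0284). KLF4 and ELK1 are not among the 3. All 4 arms were read at levels that did not pass the test between these muscles, as given above.

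The table also names related miRNAs beside 319 of the 522 genes, by a rule not given in the sources used here. An arm of miR-143 or miR-145 stands beside 9 genes, 6 higher and 3 lower in HC-L, where the genes with any miRNA divide into 224 higher and 95 lower. miR-145-5p stands beside 6, of which GDNF, a neurotrophic factor, had signals of 261 to 952 in HC-L and 42.3 to 106 in HC-P (3.45, authors' deposited table, adjusted p = 1.12e-08). Also higher in HC-L were ENHO, which encodes the secreted peptide adropin (3.17), FDXACB1 (2.58, with overlapping libraries), DUSP27 (1.42) and ZFP36L1, which binds unstable mRNAs (1.18), all in the authors' deposited table. FAM171A2 was lower at -1.26. miR-143-5p stands beside the stress-response gene GADD45B (2.22) and KLHL38 (-1.39), miR-143-3p beside CHPF2, an enzyme of chondroitin synthesis (-1.25), and miR-145-3p beside 0 genes of the authors' deposited table.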

How the data were processed

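Read counts per mature miRNA were deposited by the authors for the 12 small RNA libraries. The deposited TPM was recomputed as reads over all miRNA reads of a library times 1e6, within a relative difference of 2.64e-09. The authors' deposited tables of changed miRNAs and mRNAs give a signal per group or library, log2 fold changes and p-values, raw and adjusted. The aligner, genome build, miRNA database and counting rule were not given in the sources used here. TruSeq small RNA libraries were made from tissue and exosome RNA, per the labels' protocols. Counts were fitted in R 4.3.3 with edgeR 4.0.16 (filterByExpr, TMM, quasi-likelihood test, all 12 libraries and a coefficient per group; 252 of the 444 miRNAs with a read were tested, and the common dispersion was 0.346), with Benjamini-Hochberg adjustment and a threshold of 0.05. DESeq2 1.42.0 was an alternative. The edgeR script was tested on simulated counts.

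Ratios are log2 of reads with 0.5 added to each. Exact two-sided permutation tests (Python 3.11.15, scipy 1.17.1) permuted the kind of sample within muscles, or the muscle within kinds of sample, over 400 arrangements, and were adjusted over all hairpins or neighbouring pairs with at least 20 reads of each arm. Neighbours within 10 kb were read from RefSeq's Sscrofa11.1 gene table, without strand, and no coordinate of it is used, since the build of the files is not given. Of its 315 miRNA genes, 251 matched a listed miRNA. Library columns of mRNA signal could be tied to a muscle but not to a sample, and mRNAs were described without a test. Binomial intervals are exact Clopper-Pearson 95% intervals. By rule, the text names the 4 arms, the 5 miRNAs closest to each main arm, and the called or most abundant members of the lists. The members and lists were chosen with earlier results of these data known. Alternatives were other scalings, no filter, the 6 libraries compared, 2 or 0.1 reads added, both arms summed, a replicate block, and each library left out in turn. The likeness of the arms without HC-P tissue replicate 1 was added after the data were seen. The labels number libraries 1 to 3 in each group without saying what a number stands for. Deviations from group means correlated at over 0.1 in all 3 same-numbered pairs of HC-L exosomes and tissue (0.371 to 0.527). So they did between the exosome groups (0.211 to 0.342) and between the tissue groups (0.128 to 0.23). There the numbers were taken to pair libraries. In HC-P exosomes and tissue only 2 of 3 same-numbered pairs were over 0.1 (0.036 to 0.14). The main edgeR fit and the main permutation tests left this pairing out. Only the alternatives with a replicate block used it, and they paired HC-P too, where the numbers were less well borne out.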

Additional observations from a re-analysis of the deposited data

How the results depend on the processing

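The exosome-tissue calls depended on the scaling, the libraries fitted and the filter. With library totals, 0 arms passed for HC-L and 0 for HC-P, miR-143-3p stood at -0.90 and -0.79, and 22 and 36 miRNAs were called in all, beside 41 and 65 with TMM. With totals that leave out the 3 most abundant miRNAs, 0 arms were called in either muscle, miR-143-3p stood at -1.54 and -1.17, and 26 miRNAs were called in HC-L. Without the filter, 2 arms were called in HC-P, miR-145-5p at -1.74 among them, beside 83 of the 444 miRNAs with a read called in all. Between the muscles 1 miRNA was then called in exosomes and 28 in tissue, none an arm of this pair. DESeq2 called 2 miRNAs between the exosome groups. With only the 6 libraries compared, 68 miRNAs passed for HC-L and 26 for HC-P, where 0 arms passed and miR-143-3p stood at -1.91. The cause of these changes was not tested.

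With single libraries left out, the arms called ranged from 0 to 1 in each muscle, the miRNAs called from 10 to 81 in HC-L and from 31 to 83 in HC-P, miR-143-3p from -2.25 to -1.68 in HC-L and from -2.22 to -1.20 in HC-P, and miR-145-5p in HC-P from -2.41 to -1.02. The arm ratio of miR-143 ranged from -2.06 to -1.51, that of miR-145 from -2.19 to -1.33, and the hairpin ratio from -1.34 to -0.46. HC-L lost most calls without HC-L tissue replicate 2 (10) and gained most without HC-P tissue replicate 1 (81). The same libraries gave the extremes in HC-P (31 and 83).

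With a replicate block, miR-143-3p kept its calls, at -2.21 in HC-L and -1.75 in HC-P, and no edgeR call on an arm changed. In the permutation test with the block, whose smallest p is 0.0312, the arm ratios of miR-143 (-1.74, adjusted p = 0.151) and miR-145 (-1.86, adjusted p = 0.0895) did not pass. The block changed no other call on an arm or a ratio, while the miRNAs called in all in HC-P went from 65 to 59. With 2 or 0.1 reads added both arm ratios kept their calls. No value that passed the test in the main analysis or in an alternative changed sign.

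Values that passed in neither did. In HC-L exosomes against tissue, library totals gave 0.88 for miR-143-5p and 0.85 for miR-145-5p, and totals without the 3 most abundant miRNAs 0.20 and 0.19. In HC-L against HC-P tissue, miR-143-5p was -0.50 with library totals, -0.26 without the filter, -0.09 with the replicate block, -0.13 with only the 6 libraries and -0.14 with DESeq2, and miR-145-3p was -0.06 without the filter. The difference of differences of miR-145-3p was -0.03 without the 3 most abundant miRNAs and -0.14 with the block. With single libraries left out, HC-L exosomes against tissue ranged from -0.91 to 0.32 for miR-143-5p and from -0.67 to 0.03 for miR-145-5p, and HC-P exosomes against tissue from -0.34 to 0.56 for miR-143-5p. Between the exosome groups miR-143-3p ranged from -0.17 to 0.63 and miR-145-5p from -0.12 to 1.11, and between the tissue groups miR-143-5p from -0.49 to 0.29 and miR-145-3p from -0.23 to 0.68. The difference of differences ranged from -0.68 to 0.27 for miR-143-3p and from -0.46 to 0.46 for miR-145-3p. HC-L minus HC-P, the miR-145 arm ratio ranged from -0.75 to 0.15 and the hairpin ratio from -0.06 to 0.81. The cause was not tested. Depth limits the rare arms in exosomes, where miR-143-5p had 3 to 15 reads per library.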
